A study of Mus musculus with 24 samples.

Results

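Genomic imprinting is the expression of a gene mainly from 1 parental copy, set by DNA methylation that differs between egg and sperm and is kept through development. Most imprinted genes lie in clusters that share a control region, and many act on growth, neuroendocrine function and behaviour. In the brain several of them lose or weaken the preference for 1 copy, and some are transcribed from both. A list of 45 mouse imprinted genes was read from a table of 51912 genes by symbol, and the 39 with a mean of at least 0.5 CPM (counts over the column total, times 1000000) over 24 libraries were kept. Of the 51912 genes, 16892 reached that floor. The counts do not separate the parental copies, so the allele given with each gene below is background, and only the total level was measured.

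The libraries held RNA of dorsal or ventral hippocampus from 12 mice of the C57BL/6J strain whose sires had received chronic nicotine or saline. The labels give a treatment for the sire only. The sources used here give no age, dose or litter. The 8 groups of 3 libraries were nicotine-sired males, saline-sired males, nicotine-sired females and saline-sired females, each in both regions, with 2 libraries per animal and the animals of a group lettered A to C. The number in the library titles is shared within each combination of sire treatment and sex and differs between them, so whatever it marks cannot be told apart from those groups. The p-values rest on the spread between the 3 libraries within a group, estimated jointly over all groups of a fit. They do not cover a spread between the title numbers. Totals ran from 32049770 to 47486547 counts per library. All 12 hippocampal neuron markers were present in every library, with a summed level of 776 to 1527 CPM in dorsal and 710 to 1073 CPM in ventral libraries. All 6 ventral hippocampus markers were higher and all 3 dorsal hippocampus markers lower in the ventral region.

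Dorsal libraries of 3 animals had the highest sums of the 6 ventral markers: 152 CPM in saline-sired male A, 148 CPM in saline-sired male C and 135 CPM in saline-sired female C, against 41.0 to 98.7 CPM in the other dorsal libraries. In male A the sum was made up mainly of Calb2 (78.7 CPM) and Htr2c (47.0 CPM), the second of which choroid plexus also makes. Dcn, a ventral marker that is itself imprinted in mouse placenta, had 41.7 CPM in saline-sired male C and 37.0 CPM in saline-sired female C, against 5.28 to 14.98 CPM in the other dorsal libraries and 48.9 to 97.7 CPM in ventral ones. Levels per library here and below are CPM on TMM-scaled library sizes. Whether the dorsal treatment calls of members held is also given without male C and female C, and without all 3 animals. For Dio3 and Dlk1 the dorsal male and the region fold changes are also given without male C and female C. Other results that rest on dorsal libraries are given with all animals, except in the counts of members called and the refits named below. Choroid plexus, the ventricular tissue that secretes cerebrospinal fluid, varied widely between libraries: its marker Ttr ran from 34.4 to 5204 CPM in dorsal and from 25.2 to 1783 CPM in ventral libraries.

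The 39 kept genes came from 17 clusters or single loci, with 21 named as paternally expressed, 10 as maternally expressed and 8 as mixed or tissue-dependent. Their levels spanned more than 3 orders of magnitude. Per kb of exon, Snrpn, which encodes a splicing protein in the Prader-Willi and Angelman region of chromosome 7, had 401 CPM per kb. Nnat, the small membrane proteolipid neuronatin, had 176 CPM per kb and Gnas, the stimulatory G protein subunit, had 129 CPM per kb. The lowest per kb was Kcnq1ot1, a long antisense RNA, with 0.0211 CPM per kb. The value of Snurf is not given per kb, because all 216 bp of its exons lie within exons of Snrpn and of Gm38393 on the same strand and its reads cannot be separated from theirs. Mest and Copg2 overlap on opposite strands over 912 bp and Zrsr1 and Commd1 over 412 bp. The strand setting of the counting is not given in the sources used here, so whether reads of these pairs were kept apart is not known. Of genes opposite a member, Gm26906 (1228 bp shared with Meg3) had 0.0724 CPM and Zim3 (2582 bp with Usp29) 0.0740 CPM. Gm20721 (1469 bp with Gnas) had 16.3 CPM and 9330162G02Rik (1796 bp with Ube3a) 6.06 CPM. Assignment of reads by strand was not tested.

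The 6 genes under the floor were Airn with a mean of 0.366 CPM, Rtl1 with 0.158 CPM, H19 with 0.154 CPM, Peg12 with 0.0914 CPM, Nespas with 0.0169 CPM and Phlda2 with 0.00784 CPM. Just above it stood Mkrn3 with 0.544 CPM and Asb4 with 0.555 CPM. The low level of H19, a maternally expressed growth regulator RNA, lies beside 64.3 CPM of its paternally expressed neighbour Igf2, insulin-like growth factor 2. All 39 kept genes passed the low-count filter of every fit.

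The start regions of the members that the comparisons turn on are shown to set their CpG content beside their levels. CpG is the dinucleotide whose methylation marks the imprinted copy, and it is in capitals. Each window holds 250 bases before to 50 bases after a RefSeq transcription start (GRCm38.p6). Windows existed for 36 of the 45 genes, and Peg10 and Sgce are not among them.
Peg3, chr7:6730370-6730669, minus strand: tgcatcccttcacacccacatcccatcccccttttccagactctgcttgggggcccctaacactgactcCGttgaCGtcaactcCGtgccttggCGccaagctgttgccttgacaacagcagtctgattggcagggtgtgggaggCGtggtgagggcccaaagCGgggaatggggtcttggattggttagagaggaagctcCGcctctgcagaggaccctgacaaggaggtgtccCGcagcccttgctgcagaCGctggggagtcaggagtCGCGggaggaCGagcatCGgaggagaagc
Asb4, chr6:5383136-5383435, plus strand: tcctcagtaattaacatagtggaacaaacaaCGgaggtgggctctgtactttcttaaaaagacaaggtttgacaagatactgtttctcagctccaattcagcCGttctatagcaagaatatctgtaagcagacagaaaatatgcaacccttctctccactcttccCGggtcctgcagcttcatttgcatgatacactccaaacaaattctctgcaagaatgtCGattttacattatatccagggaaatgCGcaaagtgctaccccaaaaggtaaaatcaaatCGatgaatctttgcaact
Nnat, chr2:157559828-157560127, plus strand: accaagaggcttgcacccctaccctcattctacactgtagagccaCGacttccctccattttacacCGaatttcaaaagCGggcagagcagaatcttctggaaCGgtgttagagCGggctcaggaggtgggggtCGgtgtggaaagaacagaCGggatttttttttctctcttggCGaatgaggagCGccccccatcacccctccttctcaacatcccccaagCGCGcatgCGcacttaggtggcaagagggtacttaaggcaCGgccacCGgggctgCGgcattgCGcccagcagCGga
Dlk1, chr12:109452573-109452872, plus strand: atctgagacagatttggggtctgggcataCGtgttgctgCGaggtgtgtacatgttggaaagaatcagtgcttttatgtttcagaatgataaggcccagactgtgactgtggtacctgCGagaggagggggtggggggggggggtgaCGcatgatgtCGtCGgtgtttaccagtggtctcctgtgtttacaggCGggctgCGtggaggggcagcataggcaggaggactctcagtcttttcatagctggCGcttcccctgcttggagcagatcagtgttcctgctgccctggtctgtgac
Dio3, chr12:110278980-110279279, plus strand: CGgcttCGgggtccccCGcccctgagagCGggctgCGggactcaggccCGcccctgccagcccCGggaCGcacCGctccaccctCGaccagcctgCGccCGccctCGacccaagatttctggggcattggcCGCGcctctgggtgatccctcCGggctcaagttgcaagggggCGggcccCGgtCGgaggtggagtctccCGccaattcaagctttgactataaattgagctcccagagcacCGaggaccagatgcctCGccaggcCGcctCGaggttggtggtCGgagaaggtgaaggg
The Peg3 window held 13 CpG, a number that 37.9% of the 32851 RefSeq windows reached, and it shares 263 bases with the window of Usp29, which starts 147 bp away on the other strand. The Asb4 window shown held 6 CpG, reached by 56.4% of windows, and its second window, at chr6:5390160-5390459, held 8, reached by 48.7%. The Nnat window held 17, reached by 31.4%. The Dlk1 window held 9, reached by 45.8%, and the Dio3 window held 25, reached by 18.4%. The cyclic AMP response element TGACGTCA, a palindrome, was found in the shared Peg3 and Usp29 sequence and in a Meg3 window, and in 1.79% of all windows. The TATA core TATAAA, searched on both strands, was found for Dio3 and for 6 other kept members, and in 13.6% of all windows. These letters were chosen after the sequences had been read, and a match describes the sequence only.

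The first question was whether offspring of nicotine-treated sires differed from offspring of saline-treated sires, in males, in females and between the sexes. In dorsal hippocampus of males, 3 of the 39 kept genes passed an adjusted p of 0.05 and all 3 fell: Peg10, Asb4 and Peg3. Of all 19130 genes tested, 1.78% passed in this comparison. The difference between the male and the female change passed for the same 3 genes, where 2.24% of all genes passed. The tests were edgeR quasi-likelihood F tests with Benjamini-Hochberg adjustment over all genes. In the other 6 treatment comparisons no kept gene passed, and the values are given below.

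Peg10, a paternally expressed gene derived from a retrotransposon, codes for a Gag-like protein that the placenta requires and that is also made in neurons. It lies at chr6:4747306-4760517 (GRCm38, plus strand). In dorsal hippocampus it had 12.3, 15.3 and 10.6 CPM in nicotine-sired males, against 33.9, 28.8 and 35.1 CPM in saline-sired males. In nicotine-sired females it had 23.9, 20.4 and 19.2 CPM, against 11.2, 11.8 and 12.9 CPM in saline-sired females. The groups did not overlap in either sex, and they stood in opposite order. In males Peg10 fell by 1.36 ± 0.13 on the log2 scale (SE; adjusted p = 0.000388, edgeR). In females the log2 fold change was 0.83 ± 0.13 and did not pass (adjusted p = 0.0826, edgeR), though it did in the refits without nicotine-sired male B or C (adjusted p = 0.0313 and 0.0438, edgeR). The male change minus the female change was -2.19 ± 0.19 (adjusted p = 0.000278, edgeR).

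In ventral hippocampus Peg10 had 24.1, 24.5 and 15.4 CPM in nicotine-sired males, against 37.2, 38.1 and 31.4 CPM in saline-sired males. It had 31.5, 30.3 and 30.2 CPM in nicotine-sired females, against 27.6, 29.3 and 18.3 CPM in saline-sired females. The groups did not overlap in either sex. The log2 fold changes were -0.74 ± 0.19 in males (adjusted p = 0.0580, edgeR) and 0.29 ± 0.19 in females (adjusted p = 0.514, edgeR), and their difference was -1.03 ± 0.27 (adjusted p = 0.102, edgeR). None of these passed, though the male change did in the refit without saline-sired female C (adjusted p = 0.0146, edgeR). Whether the treatment change differed between the regions was not tested.

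Sgce, epsilon-sarcoglycan, a paternally expressed membrane protein gene, starts 99 bp from Peg10 on the opposite strand and shares its control region. In dorsal hippocampus it had 23.6, 24.6 and 23.3 CPM in nicotine-sired males, against 26.6, 27.4 and 23.9 CPM in saline-sired males. In females it had 21.9, 26.1 and 26.3 CPM after nicotine, against 21.9, 22.1 and 18.99 CPM after saline. The groups overlapped in both sexes. Its log2 fold change was -0.13 ± 0.09 in dorsal males (adjusted p = 0.496, edgeR) and the male minus female difference was -0.37 ± 0.13 (adjusted p = 0.132, edgeR), beside a difference of -2.19 for Peg10.

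Asb4, a maternally expressed gene of the same cluster, codes for a substrate adaptor of a ubiquitin ligase and starts 622869 bp beyond the end of Peg10. In dorsal hippocampus it had 0.124, 0.328 and 0.156 CPM in nicotine-sired males, against 1.06, 0.993 and 0.700 CPM in saline-sired males. In females it had 0.693, 0.384 and 0.786 CPM after nicotine, against 0.506, 0.271 and 0.279 CPM after saline. The male groups did not overlap and the female groups did. The gene fell by 2.19 ± 0.44 on the log2 scale in males (adjusted p = 0.0302, edgeR), and the male minus female difference was -3.01 ± 0.61 (adjusted p = 0.0285, edgeR). These are among the lowest levels of the list, and both calls were lost in some refits: the male call without nicotine-sired male A or C or any 1 saline-sired male (fold changes of -2.36 to -1.92, adjusted p = 0.0516 to 0.134, edgeR), and the difference between the sexes without nicotine-sired male A or C, saline-sired male A or B, nicotine-sired female C, or saline-sired female B or C (adjusted p = 0.0544 to 0.0981, edgeR).

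Peg3, a paternally expressed zinc finger transcription factor linked to maternal behaviour and growth in mice, lies at chr7:6703892-6730431. In dorsal hippocampus it had 160, 142 and 126 CPM in nicotine-sired males, against 183, 176 and 219 CPM in saline-sired males. In females it had 171, 162 and 156 CPM after nicotine, against 150, 144 and 154 CPM after saline. In neither sex did the groups overlap, and the order was opposite. Peg3 fell by 0.43 ± 0.10 on the log2 scale in males (adjusted p = 0.0400, edgeR), and the male minus female difference was -0.57 ± 0.13 (adjusted p = 0.0475, edgeR). The male call held in the refits without nicotine-sired female A and without saline-sired female C and was lost in the other 10 (highest adjusted p = 0.165, edgeR). The call for the difference between the sexes was lost whichever of the 12 animals was left out (adjusted p = 0.0530 to 0.153, edgeR).

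Usp29, a deubiquitinase-like gene that shares the Peg3 start region, had 21.4, 22.9 and 19.3 CPM in dorsal hippocampus of nicotine-sired males, against 29.4, 24.9 and 30.8 CPM in saline-sired males. The male groups did not overlap, and the log2 fold change of -0.42 ± 0.13 did not pass (adjusted p = 0.132, edgeR). Over the 24 libraries, with each region centred on its own mean, log2 levels of Peg3 and Usp29 had a Pearson r of 0.855, those of Peg10 and Asb4 0.747, and those of Peg10 and Sgce 0.494. These values are descriptions over libraries that share animals and groups. Zim1, the maternally expressed zinc finger gene next to Peg3, had 3.09, 2.17 and 2.65 CPM in nicotine-sired males, against 4.53, 3.55 and 4.20 CPM in saline-sired males. Its fold change of -0.63 ± 0.19 did not pass (adjusted p = 0.117, edgeR).

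**Figure D1:**
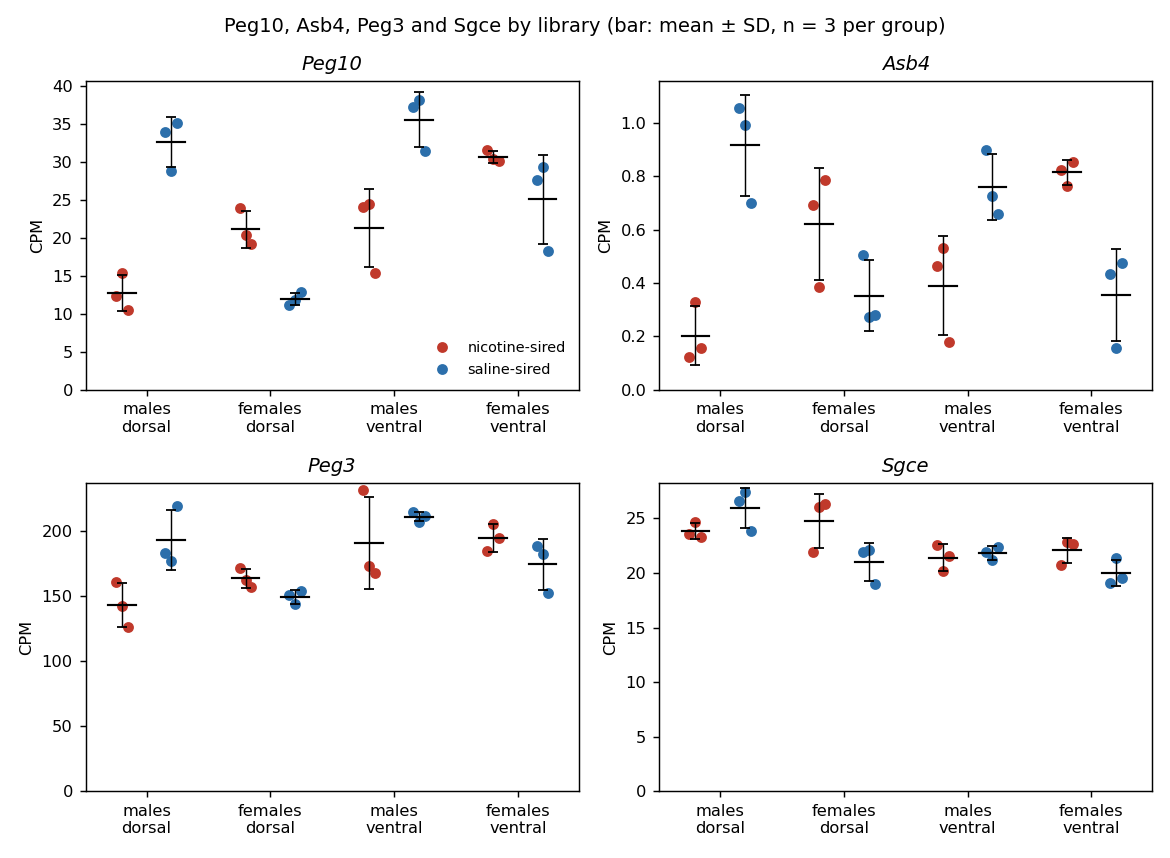
Level in CPM (y axis, from 0) of Peg10, Asb4, Peg3 and Sgce in each library by sex and region (x axis), with nicotine-sired animals in red and saline-sired animals in blue; bars give the mean ± SD of 3. Dorsal Peg10 is at 10.6 to 15.3 CPM in nicotine-sired and 28.8 to 35.1 CPM in saline-sired males, and the order is opposite in females, while Sgce stays between 18.99 and 27.4 CPM in all 24 libraries.

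Other features of the dorsal libraries moved with these groups. The summed level of 8 interneuron markers ran from 604 to 804 CPM in nicotine-sired males, against 790 to 910 CPM in saline-sired males, and from 773 to 972 CPM in nicotine-sired females, against 642 to 772 CPM in saline-sired females. Of the 8 interneuron markers, Gad1 and Gad2 passed for the male minus female difference (-0.75 and -0.83 on the log2 scale; adjusted p = 0.0454 and 0.0466, edgeR), and none was at 0. The 6 pericyte and smooth muscle markers summed to 124 to 145 CPM in nicotine-sired males, against 104 to 112 CPM in saline-sired males, and Myh11 and Acta2 of that list rose in males (1.08 and 0.87 on the log2 scale; adjusted p = 0.0170 and 0.0368, edgeR). The 8 endothelial markers summed to 168 to 180 CPM in nicotine-sired males, against 188 to 200 CPM in saline-sired males, and to 188 to 272 CPM in nicotine-sired females, against 163 to 198 CPM in saline-sired females, and Flt1 of that list passed for the male minus female difference (-0.69 on the log2 scale; adjusted p = 0.0488, edgeR). The 4 ependyma markers had sums of 8.05 to 20.9 CPM (median 14.2 CPM) in nicotine-sired males, against 17.3 to 45.4 CPM (median 31.8 CPM) in saline-sired males, and of 10.3 to 44.5 CPM (median 29.7 CPM) in nicotine-sired females, against 7.91 to 10.99 CPM (median 10.8 CPM) in saline-sired females. The 6 markers of progenitors and dividing cells summed to 31.9 to 38.1 CPM in nicotine-sired males, against 41.3 to 56.4 CPM in saline-sired males. No ependyma or progenitor marker passed in these comparisons. By their medians, endothelial, ependyma, interneuron, ventral hippocampus, and hypothalamus and thalamus sums stood in the same order as Peg10 in males and in females. The sums of the other marker lists did not. For hypothalamus and thalamus the medians were 75.7 CPM in nicotine-sired and 77.7 CPM in saline-sired males, and 79.9 and 71.5 CPM in females. The ventral hippocampus sums are given below. The part of these cell types and regions in the fall of Peg10, Asb4 and Peg3 was not tested. In whole tissue fewer cells of a type and less RNA per cell cannot be told apart. Of 10 hypothalamus and thalamus markers, none of the 9 tested passed in these comparisons. Over all 24 libraries the peptide genes Hcrt, Pmch, Oxt and Agrp were at most at 0.105, 0.328, 0.776 and 1.01 CPM. Avp and Pomc reached 2.33 and 7.81 CPM, both in ventral libraries. Other markers of the list were higher: in dorsal libraries Prkcd had 12.6 to 50.5 CPM, Rora 18.2 to 47.4 CPM, Lhx9 5.99 to 13.2 CPM and Tcf7l2 3.93 to 7.36 CPM.

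The ventral marker sum ran from 41.0 to 83.9 CPM (median 59.2 CPM) in dorsal libraries of nicotine-sired males, against 67.7 to 152 CPM (median 148 CPM) in those of saline-sired males. In females it ran from 43.6 to 98.7 CPM (median 76.9 CPM) after nicotine, against 49.4 to 135 CPM (median 50.8 CPM) after saline. Without saline-sired male C and saline-sired female C, Peg10 fell by 1.31 ± 0.15 in males (adjusted p = 0.00454, edgeR) and its male minus female difference was -2.20 ± 0.22 (adjusted p = 0.00334, edgeR). Without the same animals Asb4 (-2.36 ± 0.48, adjusted p = 0.0650) and Peg3 (-0.34 ± 0.09, adjusted p = 0.151, edgeR) no longer passed in males. Without saline-sired male A as well, which leaves 1 saline-sired male whose spread is taken from the other groups, Peg10 had -1.18 ± 0.18 in males and did not pass (adjusted p = 0.0642, edgeR), while its male minus female difference of -2.06 ± 0.24 did (adjusted p = 0.0339, edgeR). Neither Asb4 nor Peg3 passed there. The summed count of 592 noncoding genes opposite 539 coding genes, as a percent of the count of the coding genes, was taken as a rough sign of how strictly a library keeps strand. It can be such a sign only if reads were counted by strand, which the sources used here do not state. The noncoding genes were chosen to have a mean under 0.05 of that of their coding gene. The ratio was 0.259% to 0.487% in dorsal libraries of nicotine-sired males, against 0.225% to 0.464% in those of saline-sired males. With this antisense ratio as a covariate Peg10 fell by 1.39 ± 0.16 in males (adjusted p = 0.00252, edgeR), while Asb4 (adjusted p = 0.0537) and Peg3 (adjusted p = 0.107, edgeR) did not pass. With the choroid plexus level added to the model all 3 male calls were kept.

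Across the kept genes as a group the dorsal male fold changes had a median of -0.07 on the log2 scale, beside 0.00 over all genes tested, and 24 of 39 were negative. Among the 21 paternally expressed members 15 were negative, with a median of -0.13, and 2 passed. Among the 10 maternally expressed members 5 were negative, with a median of 0.01, and 1 passed. For the male minus female difference the median was -0.16 over the 39 genes and -0.02 over all genes, and 13 of the 39 had an unadjusted p under 0.05, as did 20.2% of all genes. In dorsal males 9 of the 39 did, beside 17.6% of all genes. DESeq2 called 7 of the kept genes in dorsal males and 6 for the difference, where it called 4.94% and 7.01% of all genes. Dlk1 had the most negative dorsal male fold change, -2.61 ± 0.79, and Dio3 had -2.42 ± 1.13, and neither passed (adjusted p = 0.142 and 0.306, edgeR). Without saline-sired male C and female C, Dio3 had -0.64 ± 0.42 and Dlk1 -2.31 ± 0.52 in males (adjusted p = 0.521 and 0.104, edgeR). Plagl1, a paternally expressed zinc finger gene that regulates other imprinted genes, had a male minus female difference of -1.66 ± 0.39 (adjusted p = 0.0551, edgeR).

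**Figure D2:**
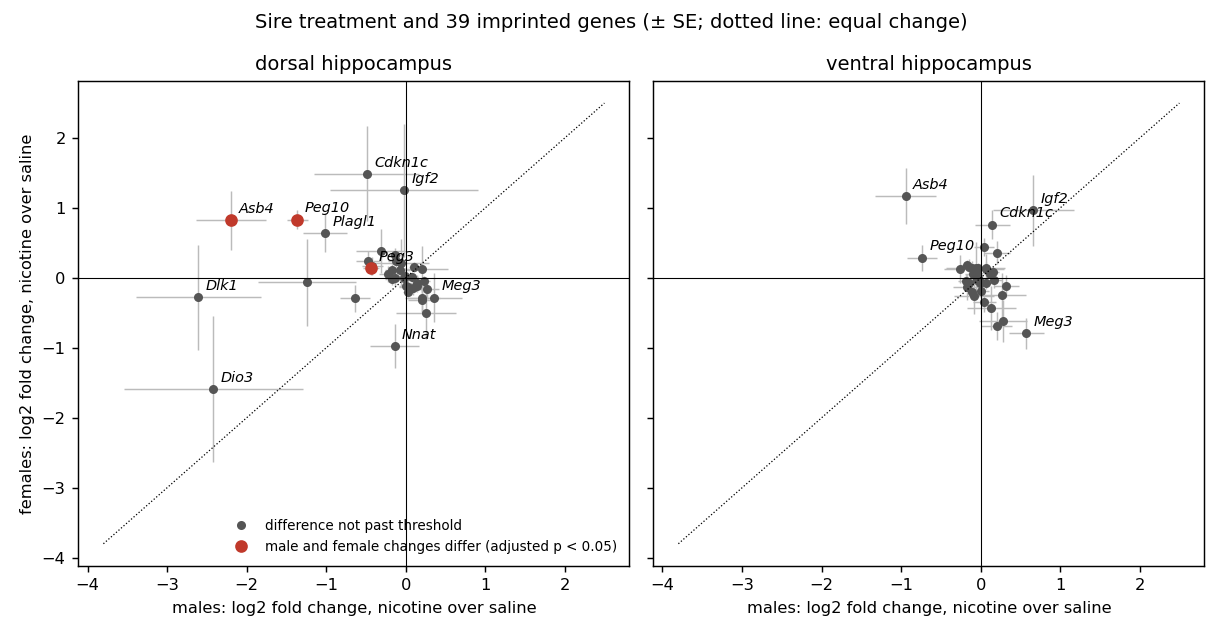
Log2 fold change, nicotine-sired over saline-sired, in males (x axis) and in females (y axis) for the 39 kept genes, with standard errors, in the dorsal (left) and ventral (right) region; red points mark genes whose male and female changes differ past the threshold. Peg10, Asb4 and Peg3 lie left of 0 for males and above 0 for females in the dorsal panel, and no ventral gene is marked.

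In dorsal hippocampus of females 0 of 39 genes passed in edgeR, where 0.0314% of all genes did, with 7 at an unadjusted p under 0.05, beside 13.3% of all genes, and 1, Peg10, called by the DESeq2 Wald test, beside 1.75%. After Peg10 the smallest p belonged to Trappc9, a maternally expressed trafficking gene, with -0.20 ± 0.07 (adjusted p = 0.245, edgeR), and Nnat, with -0.97 ± 0.31 (adjusted p = 0.257, edgeR). Nnat had 93.1, 154 and 131 CPM in nicotine-sired females, against 215, 210 and 323 CPM in saline-sired females, and these groups did not overlap. How many of all genes had groups without overlap was not counted, here or elsewhere. The 323 CPM were those of saline-sired female C, a dorsal library with a high ventral marker sum. Over the 24 libraries Nnat had an r of 0.711 with Dcn. With 1 animal left out at a time its fold change ran from -1.15 to -0.74. The part of ventral tissue was not tested. Over both sexes in the dorsal region 0 of 39 passed in edgeR, where 0.0784% of all genes did, with 8 at an unadjusted p under 0.05, beside 10.8% of all genes, and 0 called by DESeq2, beside 0.986%. The smallest p were those of Zim1 (-0.46 ± 0.13, adjusted p = 0.245), Peg10 (-0.26 ± 0.09, adjusted p = 0.354) and Inpp5f (0.13 ± 0.05, adjusted p = 0.386, edgeR).

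In ventral hippocampus no member passed in edgeR for males, females, both sexes or the difference between the sexes, where 3.21%, 0.0312%, 1.75% and 1.07% of all genes did. At an unadjusted p under 0.05 stood 4, 9, 7 and 6 members in that order, beside 15.8%, 13.9%, 15.7% and 14.2% of all genes. DESeq2 called 1 (Peg10), 1 (Cdkn1c), 0 and 3 (Asb4, Meg3 and Peg10), beside 3.99%, 1.43%, 3.12% and 2.93% of all genes. The antisense ratio was 0.428% to 0.514% in ventral libraries of nicotine-sired males, against 0.236% to 0.282% in those of saline-sired males. These ranges do not overlap, so in ventral males the ratio cannot be told apart from sire treatment. With it as a covariate 0 of 19224 genes passed for males, females or both sexes, and 3 genes, no member among them, for the difference between the sexes. That fit cannot show whether the ratio has a part in the ventral member values, which was not tested. Meg3, a maternally expressed long noncoding RNA of the Dlk1-Dio3 cluster, had the smallest p for the difference between the sexes. It had 266, 316 and 261 CPM in nicotine-sired males, against 200, 193 and 172 CPM in saline-sired males, and 209, 144 and 248 CPM in nicotine-sired females, against 452, 255 and 330 CPM in saline-sired females. The groups did not overlap in either sex and stood in opposite order. The male minus female difference was 1.36 ± 0.31 (adjusted p = 0.0822, edgeR), from fold changes of 0.58 ± 0.22 in males and -0.79 ± 0.22 in females (adjusted p = 0.235 and 0.193, edgeR). The difference passed in the refit without saline-sired female B (adjusted p = 0.0388, edgeR).

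Mirg, a microRNA host RNA transcribed from the same chromosome copy as Meg3, had a ventral female fold change of -0.69 ± 0.20 (adjusted p = 0.177, edgeR), and Rian, the snoRNA host between them, had 0.05 ± 0.07 (adjusted p = 0.793, edgeR). Over the 24 libraries Meg3 had an r of 0.857 with Mirg and 0.487 with Rian. A search for genes with similar centred levels left out microRNA genes and names of the Gm, Rik and similar numbered kinds. Among the rest, the gene most like Meg3 was the long noncoding RNA Snhg11 (r = 0.976), followed by Miat (r = 0.920), also a long noncoding RNA. The genes most like Peg10 in that search were Ddx17 (r = 0.876) and Akap12 (r = 0.869). For Peg3 they were Hspa4l (r = 0.918) and Rpgrip1l (r = 0.914), and for Asb4 Irak3 (r = 0.839) and Derl3 (r = 0.833), each over 24 libraries from 12 animals.

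Cdkn1c, a maternally expressed inhibitor of the cell cycle, had 5.77, 6.85 and 7.91 CPM in ventral hippocampus of nicotine-sired females, against 3.55, 3.53 and 5.01 CPM in saline-sired females. These groups did not overlap, and the fold change of 0.76 ± 0.21 did not pass in edgeR (adjusted p = 0.160). The choroid plexus markers summed to 281 to 2825 CPM in those nicotine-sired libraries, against 173 to 326 CPM in the saline-sired ones. Mest, a paternally expressed hydrolase-like gene, had a fold change of 0.44 ± 0.13 there (adjusted p = 0.169, edgeR). Over both sexes the smallest ventral p were those of Trappc9 (-0.15 ± 0.05, adjusted p = 0.142), Cdkn1c (0.45 ± 0.15, adjusted p = 0.162) and Mest (0.24 ± 0.09, adjusted p = 0.204, edgeR). In ventral males Asb4 had -0.94 ± 0.39 (adjusted p = 0.242) and for the difference between the sexes -2.11 ± 0.56 (adjusted p = 0.0929, edgeR).

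Igf2 had a 7.89-fold range over dorsal libraries, from 26.1 to 206 CPM, and a 4.71-fold range over ventral ones, from 23.5 to 111 CPM. Its highest dorsal values, 206 CPM in nicotine-sired female B and 188 CPM in saline-sired male A, were those of the libraries with 5204 and 5058 CPM of Ttr. Over the 24 libraries r with Ttr was 0.929 for Igf2 and 0.901 for Cdkn1c, as a description. In the same search by gene name, Pcolce (r = 0.977) and Abca4 (r = 0.970) were most like Igf2. In the dorsal region the Igf2 fold change was -0.02 ± 0.93 in males and 1.25 ± 0.95 in females (adjusted p = 0.994 and 0.585, edgeR), with standard errors close to or above the differences. Of the Igf2 exon bases, 62.8% are shared with the readthrough model Gm49394 of GENCODE M21 on the same strand. That model is not among the 51912 genes of the counts, so no reads were assigned to it here.

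The second question was how the members differ between the regions. Of the 39 kept genes, 22 differed between ventral and dorsal hippocampus past an adjusted p of 0.05 (edgeR, all 24 libraries), 17 higher and 5 lower in the ventral region. Of all 19849 genes tested, 29.2% passed, 14.3% higher and 14.9% lower. The median log2 fold change of the 39 was 0.16, beside -0.01 over all genes, and the median size was 0.25, beside 0.13. Among the paternally expressed members 10 rose and 2 fell, of 21. Among the maternally expressed members 2 rose and 1 fell, of 10, and among the mixed ones 5 rose and 2 fell, of 8.

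Dio3, the paternally expressed deiodinase that inactivates thyroid hormone, had the largest fold change of the list. It had 7.73 to 16.3 CPM in ventral libraries with a median of 10.3 CPM, against 0.234 to 5.32 CPM in dorsal libraries with a median of 0.621 CPM. It was higher in the ventral library of all 12 animals, and the regions did not overlap. It rose by 3.39 ± 0.39 on the log2 scale (adjusted p = 5.94e-06, edgeR). The highest dorsal values were 4.85 CPM in saline-sired male C and 5.32 CPM in saline-sired female C, the dorsal libraries with the most Dcn, and the other 10 dorsal libraries lay at or under 0.793 CPM. Without those animals the fold change was 4.34 ± 0.14.

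Dlk1, a paternally expressed Notch-family ligand at the other end of that cluster, had 15.7 to 32.8 CPM in ventral libraries (median 20.97 CPM), against 0.701 to 12.3 CPM in dorsal ones (median 2.65 CPM). It rose by 2.67 ± 0.29 (adjusted p = 3.15e-06, edgeR), in 12 of 12 animals, and by 3.16 ± 0.23 without the same pair. Its dorsal libraries over 8 CPM were saline-sired male A with 9.95 CPM, saline-sired male C with 12.3 CPM and saline-sired female C with 8.08 CPM. Within the Dlk1-Dio3 cluster Rian rose by 0.31 ± 0.05 (adjusted p = 3.97e-05) and Begain, a postsynaptic protein gene, by 0.21 ± 0.06 (adjusted p = 0.0158, edgeR). Meg3 (0.26 ± 0.15, adjusted p = 0.220) and Mirg (0.23 ± 0.11, adjusted p = 0.129, edgeR) did not pass.

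Plagl1 had 19.4 to 40.6 CPM in ventral libraries (median 30.0 CPM), against 6.00 to 19.5 CPM in dorsal ones (median 11.3 CPM), and rose by 1.49 ± 0.13 (adjusted p = 4.07e-07, edgeR). Nnat had 338 to 622 CPM in ventral libraries (median 478 CPM), against 93.1 to 323 CPM in dorsal ones (median 146 CPM), and rose by 1.47 ± 0.13 (adjusted p = 3.73e-07, edgeR). Its ranges did not overlap. Blcap, the gene whose intron holds Nnat, had 88.9 to 105 CPM in ventral libraries, against 61.5 to 82.0 CPM in dorsal ones, also without overlap, and rose by 0.51 ± 0.04 (adjusted p = 5.80e-08, edgeR). Both were higher in the ventral library of all 12 animals.

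Of the 6 members of the Prader-Willi and Angelman region, Magel2, a regulator of protein recycling, rose by 1.13 ± 0.25 (adjusted p = 0.00196) and Mkrn3, a ubiquitin ligase linked to puberty in humans, fell by 0.46 ± 0.16 (adjusted p = 0.0360, edgeR). Snrpn (0.01 ± 0.04), Snurf (-0.02 ± 0.03) and Ube3a (0.04 ± 0.07), the ubiquitin ligase that neurons express from the maternal copy, did not pass. Ndn, necdin, a growth suppressor of neurons, was higher in the ventral library of 12 of 12 animals with 0.46 ± 0.19, and did not pass (adjusted p = 0.0722, edgeR). Both regions came from the same animals, and with the animal as a replicate block Ndn, Mirg and Rasgrf1 passed as well, while Mkrn3 did not (adjusted p = 0.0525, edgeR).

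Peg10 had 15.4 to 38.1 CPM in ventral libraries (median 29.7 CPM), against 10.6 to 35.1 CPM in dorsal ones (median 17.2 CPM), and rose by 0.62 ± 0.09 (adjusted p = 2.06e-05, edgeR). Its neighbour Sgce fell by 0.16 ± 0.04 (adjusted p = 0.00434, edgeR), being lower in the ventral library of 11 of 12 animals, and Asb4 (0.28 ± 0.21) did not pass. Peg3 and Usp29 rose by 0.25 ± 0.05 and 0.28 ± 0.06 (adjusted p = 0.00124 and 0.00119, edgeR). Mest rose by 0.55 ± 0.12 while Copg2, the coatomer gene that overlaps its end, fell by 0.13 ± 0.05 (adjusted p = 0.00264 and 0.0400, edgeR). Grb10, an adaptor that dampens insulin signalling and is paternally expressed in neurons, rose by 0.50 ± 0.07, while its neighbour Ddc, which makes dopamine and serotonin from their precursors, fell by 0.27 ± 0.07 (adjusted p = 1.19e-05 and 0.00742, edgeR).

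The remaining calls were small. Impact rose by 0.41 ± 0.05, H13 by 0.22 ± 0.04, Gnas by 0.16 ± 0.04 and Trappc9 by 0.16 ± 0.03, and Inpp5f fell by 0.12 ± 0.04 (adjusted p from 8.51e-06 to 0.0185, edgeR). Peg13, a noncoding RNA in an intron of Trappc9, had 0.03 ± 0.05 and Igf2r, the receptor that clears IGF2, 0.04 ± 0.06, and neither passed. All 12 choroid plexus markers were lower in the ventral region and 10 of them passed, and their level was entered as a covariate. Then 18 of the 39 genes passed, beside 24.7% of all genes, and Begain, Inpp5f, Mkrn3 and Copg2 no longer did. Other marker sums differed too. Dorsal and ventral medians were 1242 and 906 CPM for hippocampal neurons and 782 and 886 CPM for interneurons. They were 75.5 and 57.5 CPM for hypothalamus and thalamus. The part of these cell types and regions was not tested. Leaving out 1 animal at a time ended the call of Begain in 1 refit (without nicotine-sired male B), of Inpp5f in 1 (without nicotine-sired female C), of Mkrn3 in 6 and of Copg2 in 7.

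**Figure D3:**
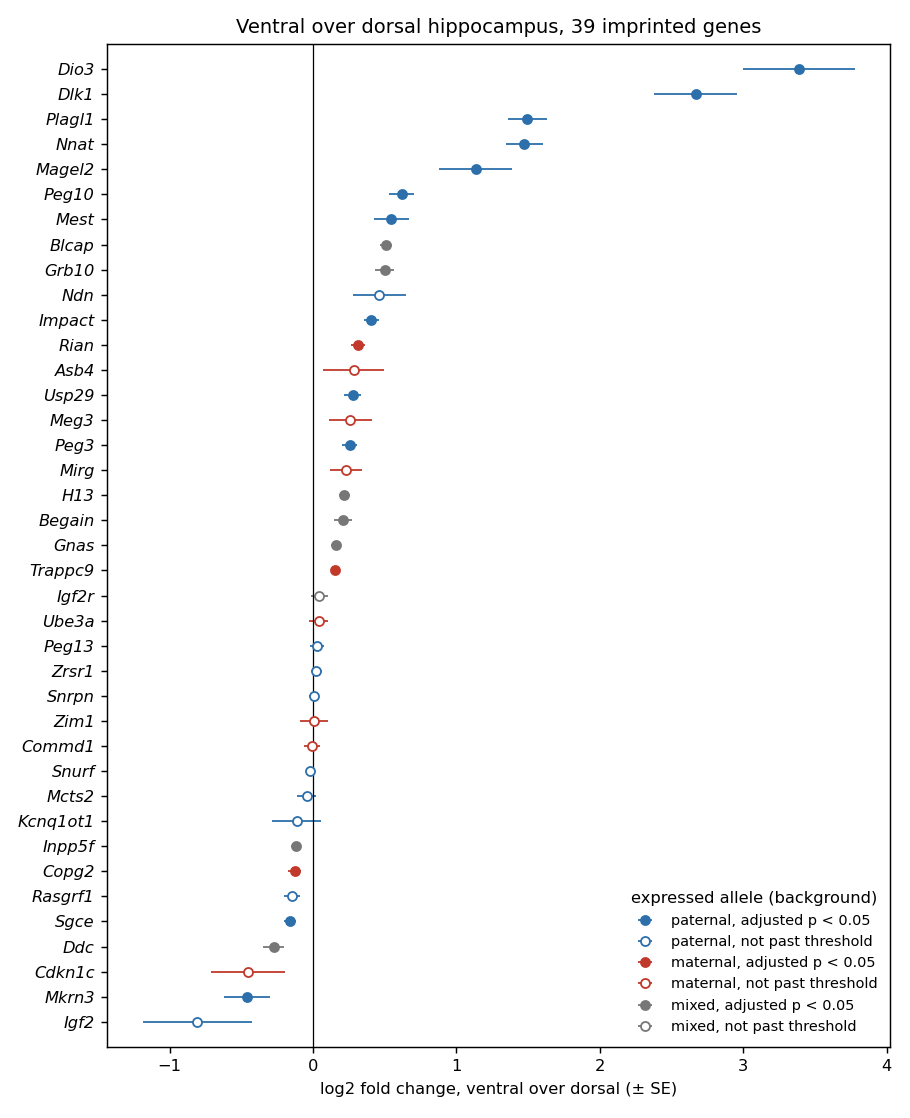
Log2 fold change, ventral over dorsal hippocampus, with its standard error (x axis) for each of the 39 kept genes (y axis, ordered by fold change); filled points passed an adjusted p of 0.05 and colours give the expressed allele as background. Dio3 at 3.39 and Dlk1 at 2.67 lie far from the other members, and 22 points are filled.

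**Figure D4:**
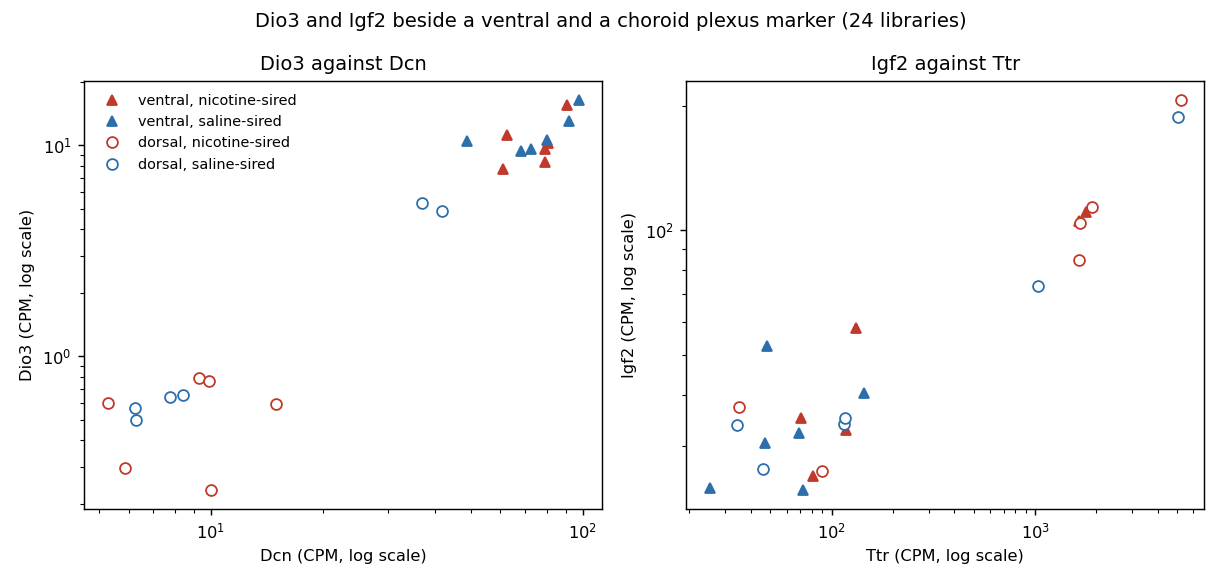
Dio3 against Dcn (left) and Igf2 against Ttr (right), both axes in CPM on a log scale, for 24 libraries, with triangles for ventral and open circles for dorsal libraries and colours for sire treatment. A pair of dorsal saline-sired libraries lies near the ventral ones with Dio3 at 4.85 and 5.32 CPM, and the libraries with the most Ttr have the most Igf2.

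Within a region most members varied little between libraries. The coefficient of variation over 12 libraries had a median of 15.7% in the dorsal and 10.6% in the ventral region. In the dorsal region it was lowest for Gnas, with 4.55%, and highest for Dio3, with 134%, followed by Dlk1 with 90.7% and Igf2 with 78.2%. In the ventral region it was lowest for Snurf, with 4.10%, and highest for Igf2, with 63.6%, followed by Asb4 with 43.1% and Cdkn1c with 40.8%. Dio3 and Dlk1 had 24.2% and 23.8% there.

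Ndn fell into separate levels by animal and not by group. In ventral hippocampus it had 149 CPM in nicotine-sired male B, 157 CPM in saline-sired male B, 153 CPM in nicotine-sired female B, and 157 and 159 CPM in saline-sired females B and C. The other 7 animals had 254 to 303 CPM there. In dorsal hippocampus the same 5 animals had 108 to 119 CPM and the other 7 had 186 to 223 CPM. Each of the 4 groups of sire treatment and sex held animals at both levels. The Ndn fold changes for sire treatment lay between -0.06 and 0.21 and none passed (adjusted p of at least 0.815, edgeR). The low set held all 4 animals lettered B, 1 of the 4 lettered C and none of the 4 lettered A. What the letter marks is not given in the sources used here, and its part in the division was not tested.

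**Figure D5:**
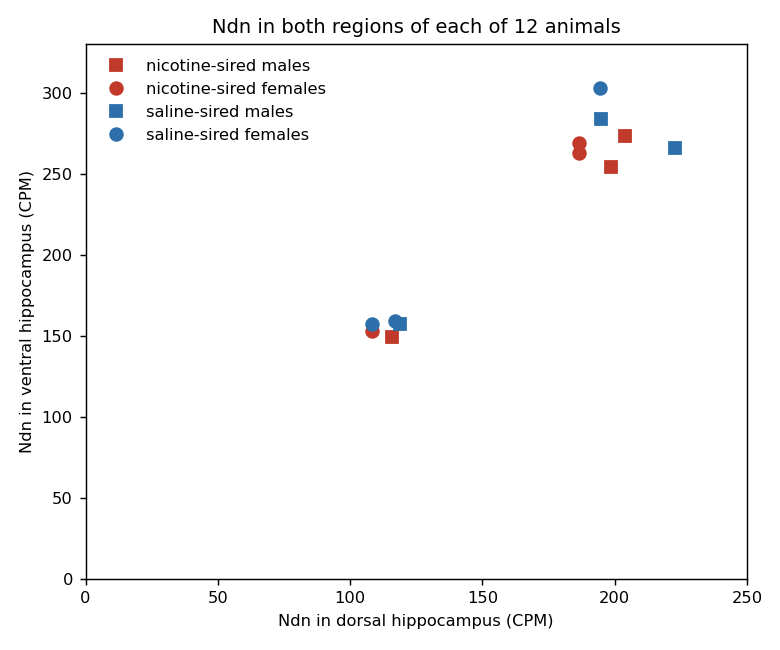
Ndn in dorsal (x axis) and ventral (y axis) hippocampus, in CPM from 0, for each of 12 animals; squares are males, circles females, red nicotine-sired and blue saline-sired. A set of 5 animals lies at 108 to 119 CPM dorsal and 149 to 159 CPM ventral, and the other 7 at 186 to 223 CPM dorsal and 254 to 303 CPM ventral.

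For the wider pathway, 27 regulators of imprinting (DNA methyltransferases, TET enzymes and proteins that protect imprints) and 40 further imprinted genes were read from the same fits. Of the regulators 25 were tested in dorsal and 24 in ventral libraries, and of the further genes 33 and 35. None passed in any of the 8 treatment comparisons in edgeR, with 1 to 4 regulators and 3 to 7 further genes at an unadjusted p under 0.05 per comparison, beside 10.8% to 20.2% of all genes. DESeq2 called 1 regulator, the histone methyltransferase gene Ehmt2, in dorsal females, of 23, beside 1.75% of all genes. The same gene was called for the dorsal difference between the sexes, of 24, beside 7.01% of all genes. Of the further genes DESeq2 called Ago2 and Ampd3 in dorsal males and Ago2 and Htr2a for the dorsal difference. Each was of 32 genes, beside 4.94% and 7.01% of all genes. Pon3 was called in ventral females, of 35, and for the ventral difference, of 33, beside 1.43% and 2.93%. Bcl2l1 was called in ventral males, of 38, beside 3.99%. Over both sexes in the ventral region Bcl2l1 and Nap1l4 were called, of 38, beside 3.12%. Between the regions 2 regulators rose and 5 fell, of 25, where 29.2% of all genes passed. Zfp57, a zinc finger protein that protects imprints, rose by 0.70 ± 0.15 (adjusted p = 0.00126) and the maintenance methyltransferase gene Dnmt1 by 0.18 ± 0.05 (adjusted p = 0.00444, edgeR). Tet3, Ctcf, Uhrf1, Smchd1 and Ezh2 fell by 0.14 to 0.48. Of the further genes 11 rose and 5 fell, of 35, with the largest changes for Dcn (2.58 ± 0.34) and Klf14 (2.27 ± 0.54; adjusted p = 2.39e-05 and 0.00287, edgeR). Zdbf2, Nap1l5, Kcnk9, Slc38a4, Ampd3, Osbpl5, Cdh15, Pon2 and Htr2a rose by 0.13 to 0.76, and Gab1, Herc3, Ppp1r9a, Casd1 and Adam23 fell by 0.11 to 0.42.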

How the data were processed

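A kit for stranded mRNA libraries and 150 bp single-end sequencing were used, per the labels' protocols. TopHat2 2.1.0, Cufflinks and Cuffdiff 2.2.1.3 are named in the submitters' processing notes, with builds mm10 and GRCm38. The authors deposited raw read counts per gene, but the sources used here name neither the counting tool nor its strand setting. Symbols were matched through GENCODE M21.

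Members' rows were read from fits over all genes: edgeR 4.0.16 with TMM, filterByExpr by group, robust quasi-likelihood F tests, two-sided, and Benjamini-Hochberg adjustment (threshold 0.05). Each region was fitted apart with 4 groups of 3, and the comparison of regions used all 24 libraries. CPM values other than those of the floor and per kb use TMM-scaled library sizes. The SE is the fold change over the square root of F. The procedure was tested on simulated counts.

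Members, lists and comparisons were chosen with earlier results of these data known. Full statistics were given for members past the threshold and, without a call, for the 3 with the smallest p. Other members that did not pass, among them neighbours in a cluster, were given with statistics too, and these were not chosen by p. Regulators and further imprinted genes were named where edgeR called them, or DESeq2 in a treatment comparison, and marker genes beside the results they moved with. Deviations of the dorsal and ventral libraries of an animal correlated with a median r of 0.155 (9 of 12 over 0.1), and the animal is given by the titles. Alternatives tried were other size factors, no low-count filter, DESeq2 1.42.0, replicate blocks, 2 covariates and leaving out animals. Figures were drawn with matplotlib 3.10.9.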

Additional observations from a re-analysis of the deposited data

Results flagged for a closer look

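The change after paternal nicotine differed between the sexes in dorsal hippocampus, by the test of the difference itself, for 3 of the 39 imprinted genes, where 2.24% of all genes passed. The male minus female difference in log2 fold change was -2.19 for Peg10, -3.01 for Asb4 and -0.57 for Peg3 (adjusted p = 0.000278, 0.0285 and 0.0475, edgeR). For each of the 3 the male fold change was negative and the female one positive. Leaving out 1 animal at a time kept the Peg10 call in all 12 refits, ended that of Asb4 in 7 and ended that of Peg3 in all 12. The title number differs between all 4 combinations of sex and sire treatment, so whatever it marks cannot be told apart from this difference.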

How the results depend on the processing

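The counts of members called in dorsal males (3) and for the dorsal difference between the sexes (3) depended on the setting: 7 and 6 with DESeq2 (4.94% and 7.01% of all genes), 1 and 1 with the letter as a replicate block (0.857% and 1.13%), 1 and 2 with the antisense ratio in the model (0.737% and 1.66%), 1 and 1 without saline-sired male C and female C (0.565% and 1.07%), 0 and 1 without saline-sired male A as well (0.0247% and 0.0891%), and 3 and 2 with the choroid plexus covariate (2.37% and 1.45%), against 1.78% and 2.24%. Both sets of animals left out were chosen after seeing the data. Leaving out 1 animal at a time gave 1 to 4 and 1 to 3, where 87 to 624 and 76 to 837 of all genes passed. Peg10 was called in every one of these fits except in males without all 3 animals (-1.18, adjusted p = 0.0642, edgeR), with leave-one-out values of -1.51 to -1.24 and -2.34 to -2.06. The letters did not pair the treatments (same-letter deviations had a median r of 0.0145, 2 of 12 over 0.1). Where no member was called, DESeq2 called 1 in dorsal females, 1 in ventral females, 1 in ventral males and 3 for the ventral difference. It called 1.75%, 1.43%, 3.99% and 2.93% of all genes there. The block called 1 in ventral males and 1 for the ventral difference (2.75% and 0.733% of all genes). No low-count filter gave 1 in dorsal females and 1 for the ventral difference (0.0438% and 0.819% of all genes). Leaving out 1 animal gave 0 to 1 in dorsal females, ventral males, ventral animals of both sexes (Igf2, without nicotine-sired female A) and the ventral difference. In the refits with a member called, 7 of 19483 and 9 of 19531 genes passed in dorsal females. In ventral males 660 of 19657 did, over both sexes 407 of 19584, and for the ventral difference 124 of 19656. Between the regions 18 to 24 members were called under every setting, against 22, where 14.9% to 35.5% of all genes were, against 29.2%. No fold change of a member called, or of the 3 with the smallest p, changed sign. The cause of the lost calls was not tested.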

Other observations

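A scan chosen after Ndn had been seen looked at how 19849 genes order the 12 animals. Ndn was the only 1 whose widest gap, with at least 3 animals on either side, separated the same 5 animals from the other 7 in both regions, by 0.65 on the log2 scale in dorsal and 0.68 in ventral libraries. Over 41 genes a gap of more than 0.4 separated some set of animals identically in both regions. In 34 of them the sets were whole groups of sire treatment and sex, and in 7, Ndn among them, they cut across groups.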
